A study of Homo sapiens with 6 samples.

Results

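The 9 genes described here encode the NODAL ligand, its relative GDF3, the coreceptors TDGF1 and CFC1, the nuclear partner FOXH1 and the secreted inhibitors LEFTY1, LEFTY2, CER1 and FST. They were picked by symbol from the 37803 symbols found once in both deposited tables, with their differences between WT and SNAI1-deleted cells already known. Their differences from WT are therefore given as a description and were not tested. All 9 were among the 13909 genes with a mean of at least 1 FPKM (fragment counts divided by transcript length and by library size) over the 6 libraries.

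RNA was sequenced from cells of the human embryonic stem cell line H1 at day 2 of differentiation toward blood cells. All 6 samples received activin A and BMP4, at 40 and 50 ng/ml per the labels, while the methods of the study give these doses the other way round. WT cells (n = 2) were compared with cells labelled SNAI1_1 (n = 2) and SNAI1_2 (n = 2), in which SNAI1, an E-box-binding repressor of epithelial genes, had been deleted. The study describes a pair of frameshift lines made with CRISPR for each deleted gene, and the labels do not tie the leading number in a title to one of those lines. The labels do not tie the samples of a group to separate cultures, so the p-values below measure only the spread between these samples, which may be technical. Each of the 2 deposited tables held 1 library of every group, and libraries were compared within a table.

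NODAL is a secreted ligand of the TGF-beta superfamily that, like activin, signals through activin receptors that phosphorylate SMAD2 and SMAD3. NODAL and GDF3 need an EGF-CFC coreceptor for this, whereas activin does not. Activated SMADs reach their targets with partners such as FOXH1, and NODAL, LEFTY1, LEFTY2 and CER1 are themselves well-known targets, so that the pathway feeds its own ligand and its own extracellular inhibitors during the formation of mesoderm and endoderm.

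To show the letters upstream of genes that stood higher and lower in the knockout libraries, the 250 bases before the transcription start were read from RefSeq (assembly GRCh38.p14) for NODAL, CER1 and FST. They lie at chr10:70441682-70441931 on the minus strand, chr9:14722734-14722983 on the minus strand and chr5:53480379-53480628 on the plus strand. Each is written 5′ to 3′ on the strand of its gene, and capitals mark CAGGTG, an E-box of the kind that SNAI1 binds, and AATNCACA, a FOXH1 motif, on either strand.
NODAL: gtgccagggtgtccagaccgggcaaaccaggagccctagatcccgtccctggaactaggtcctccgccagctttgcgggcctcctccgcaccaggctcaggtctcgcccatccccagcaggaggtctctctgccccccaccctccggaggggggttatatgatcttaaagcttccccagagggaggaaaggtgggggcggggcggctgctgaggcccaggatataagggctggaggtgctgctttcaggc
CER1: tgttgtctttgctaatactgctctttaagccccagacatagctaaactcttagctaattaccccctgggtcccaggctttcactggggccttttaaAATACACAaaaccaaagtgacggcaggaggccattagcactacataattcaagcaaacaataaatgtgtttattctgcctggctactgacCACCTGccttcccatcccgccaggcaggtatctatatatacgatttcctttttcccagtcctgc
FST: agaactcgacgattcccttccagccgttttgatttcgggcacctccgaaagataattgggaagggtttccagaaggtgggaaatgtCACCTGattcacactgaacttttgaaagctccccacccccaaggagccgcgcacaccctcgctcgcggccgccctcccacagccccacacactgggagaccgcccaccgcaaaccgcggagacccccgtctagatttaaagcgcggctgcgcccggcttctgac

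The CER1 window held 1 E-box, 64 bases before the start, and 1 FOXH1 motif, 154 bases before it. The FST window held 1 E-box, 164 bases before the start. Neither motif was found in the NODAL window, which held the short SMAD element CAGAC 237 bases before the start, as the CER1 window did 218 bases before its start. The matches did not overlap each other. Of 35116 RefSeq windows of this length, 17.5% held CAGGTG, 2.89% held AATNCACA and 38.0% held CAGAC, so a match is a description of the letters and does not mark a site in use.

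Windows were also matched for GDF3, TDGF1 and CFC1, which made 6 of the 9 genes, and not for LEFTY1, LEFTY2 and FOXH1. GDF3 held the FOXH1 motif 56 bases before its start. TDGF1, listed by RefSeq as CRIPTO, held an E-box 98 bases before its first start and 111 bases before its second start. CFC1 held none of these motifs. The genes with an E-box in the window (TDGF1, CER1 and FST) were all below WT of the same table in the libraries labelled as knockouts. So were GDF3 and CFC1, which had no E-box, and so were 35.1% of all 13909 genes tested. TDGF1 was lower only slightly, at 77.8% to 98.0% of WT, and its groups overlapped across tables.

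SNAI1 mRNA was checked first, because SNAI1 is the deleted gene. It stood at 37.1 FPKM in WT, 51.6 in SNAI1_1 and 68.6 in SNAI1_2 for the first table, against 36.4, 47.8 and 55.0 for the second. It was higher in the libraries labelled SNAI1_1 and SNAI1_2 by a log2 difference of 0.58 ± 0.074 (SE, limma adjusted p = 0.00461). The call was lost when the first table's WT library was left out (adjusted p = 0.0522). A frameshift can leave the transcript in place, so the mRNA level did not check the labels, and the names SNAI1_1 and SNAI1_2 stand throughout for libraries as labelled.

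NODAL, the ligand, stood well above WT in the knockout libraries. NODAL was measured at 12.1 FPKM in WT, 66.6 in SNAI1_1 and 68.4 in SNAI1_2 for the first table, against 13.3, 64.1 and 73.7 for the second. All 4 libraries labelled as knockouts were above both WT libraries, with 4.82 to 5.67 times the WT level of the same table. On the log2(FPKM + 1) scale the difference of both knockout groups from WT was 2.34 ± 0.065 (SE), and the group means were 12.7 ± 0.872 FPKM (SD, n = 2) in WT, 65.4 ± 1.73 in SNAI1_1 and 71.1 ± 3.71 in SNAI1_2.

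GDF3, a ligand that also acts through EGF-CFC coreceptors, went the other way from NODAL. It stood at 7.13 FPKM in WT, 1.12 in SNAI1_1 and 0.842 in SNAI1_2 for the first table, against 4.55, 1.44 and 0.968 for the second. The 4 knockout libraries were all below both WT libraries, at 11.8% to 31.6% of the WT level of their own table. In FPKM, though not as a ratio, the WT libraries themselves were further apart than the 4 knockout libraries. The difference was -1.69 ± 0.19 (SE) on the log2(FPKM + 1) scale, which understates the change of a gene this low. Within each library, the ratio of NODAL to GDF3 in FPKM, which is scaled by transcript length, was 1.69 in WT, 59.6 in SNAI1_1 and 81.3 in SNAI1_2 for the first table, against 2.92, 44.6 and 76.1 for the second.

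TDGF1 (Cripto), the main EGF-CFC coreceptor of pluripotent cells, was abundant in every group. It was measured at 266 FPKM in WT, 261 in SNAI1_1 and 253 in SNAI1_2 for the first table, against 212, 183 and 165 for the second. Each knockout library was below the WT library of its own table, at 77.8% to 98.0% of it, but the groups overlapped across tables, because both knockout libraries of the first table were above the WT library of the second. The difference of -0.17 ± 0.067 (SE) was the smallest in size of the 9 genes, and it came to -0.29 without WT of the first table and -0.05 without WT of the second. The processed pseudogene TDGF1P3, whose reads the counting could have split with TDGF1, stood at 2.05 to 4.17 FPKM, or 0.785% to 2.53% of the TDGF1 level of the same library.

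CFC1 (Cryptic), the other EGF-CFC coreceptor, was low in WT and lower still in the knockout libraries. CFC1 was measured at 3.56 FPKM in WT, 1.11 in SNAI1_1 and 1.33 in SNAI1_2 for the first table, against 4.06, 1.38 and 1.15 for the second. The groups did not overlap, and the knockout libraries held 28.3% to 37.5% of the WT level, a difference of -1.10 ± 0.14 (SE). CFC1B, a near-identical copy of CFC1, was listed at 0 in all 6 libraries, so how reads were shared between the copies is uncertain. Of the 2 coreceptors, TDGF1 thus stood far above CFC1 in every library, by 74.8, 235.5 and 190.0 times in WT, SNAI1_1 and SNAI1_2 of the first table and by 52.2, 132.2 and 143.7 times in the second.

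FOXH1, the forkhead protein that brings SMAD2 and SMAD3 to DNA, was slightly higher in each knockout library than in the WT library beside it. It stood at 42.9 FPKM in WT, 52.0 in SNAI1_1 and 52.4 in SNAI1_2 for the first table, against 38.7, 46.7 and 41.7 for the second. The ratio to WT was 1.08 to 1.22 and the log2 difference 0.23 ± 0.063 (SE), and the groups overlapped across tables because SNAI1_2 of the second table was below WT of the first. FOXH1 overlaps KIFC2 in the RefSeq annotation and the strand setting of the counting was not stated, so its values may hold reads of that gene.

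**Figure D1:**
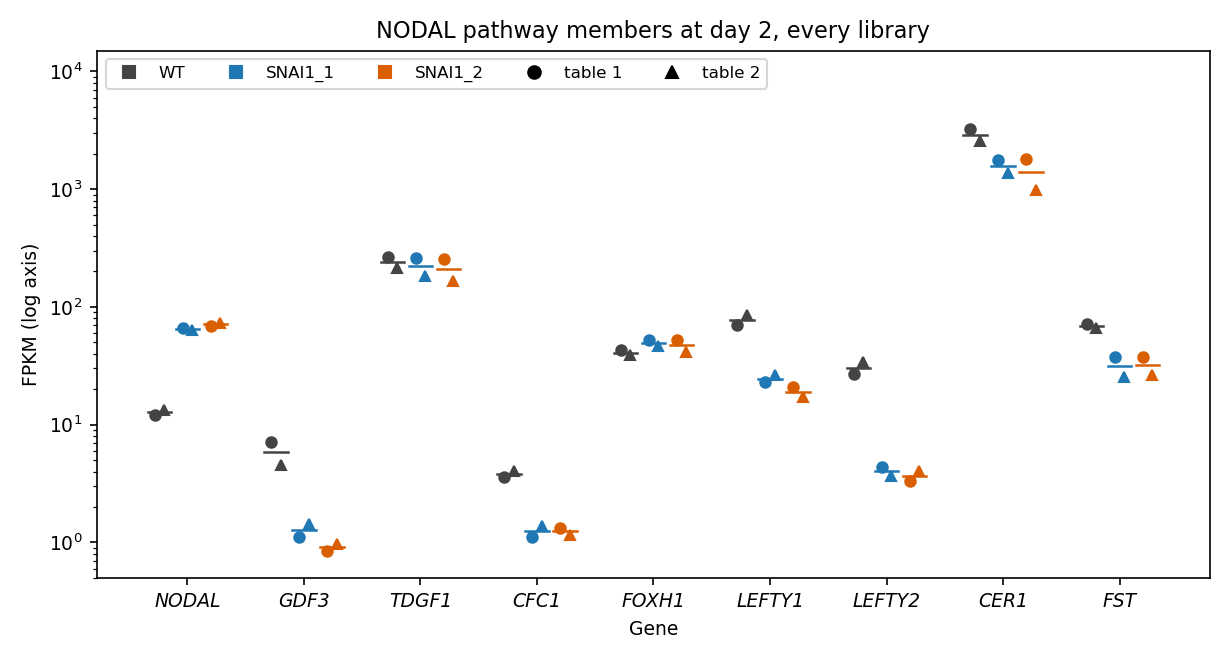
FPKM of each of the 9 genes in the 6 libraries on log axes, with WT in grey, SNAI1_1 in blue and SNAI1_2 in orange, circles for the first table, triangles for the second, and lines at the group means. NODAL stood at 12.1 and 13.3 FPKM in WT and at 64.1 to 73.7 in the knockout libraries, while LEFTY2 stood at 27.0 and 33.8 in WT and at 3.30 to 4.38 in the knockout libraries.

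The secreted inhibitors were all lower in the libraries labelled as knockouts, and for each of the 4 the groups did not overlap. Over all 13909 genes, 35.1% were lower in all 4 within-table differences, and 17.1% had all 4 knockout libraries below both WT libraries. LEFTY2, an inhibitor that binds NODAL and its coreceptors, had the largest difference of the 9 genes on the log2(FPKM + 1) scale, though NODAL had a larger one with 10 added in place of 1 (1.78 against -1.54 for LEFTY2). It stood at 27.0 FPKM in WT, 4.38 in SNAI1_1 and 3.30 in SNAI1_2 for the first table, against 33.8, 3.69 and 4.07 for the second, that is, at 10.9% to 16.2% of WT in the knockout libraries. The difference was -2.69 ± 0.13 (SE).

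LEFTY1, the paralog of LEFTY2 beside it on the chromosome, was the more abundant of the pair. It was measured at 69.6 FPKM in WT, 23.1 in SNAI1_1 and 21.1 in SNAI1_2 for the first table, against 84.9, 26.2 and 17.1 for the second. Its knockout libraries held 20.1% to 33.2% of the WT level, and the difference was -1.78 ± 0.13 (SE). LEFTY1 exceeded LEFTY2 by 2.57 times in WT, 5.26 times in SNAI1_1 and 6.38 times in SNAI1_2 for the first table, against 2.51, 7.11 and 4.19 times for the second, so the pair differed more in all 4 knockout libraries. The paralogs are close in sequence, and how the counting divided shared reads was not stated.

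CER1 (Cerberus), which binds NODAL and BMP ligands outside the cell, was the most abundant of the 9 genes in every library. It stood at 3262 FPKM in WT, 1778 in SNAI1_1 and 1797 in SNAI1_2 for the first table, against 2550.1, 1374 and 977 for the second. The knockout libraries held 38.3% to 55.1% of the WT level and all lay below both WT libraries. The difference was -1.002 ± 0.12 (SE), and the group means were 2906 ± 504 FPKM (SD, n = 2) in WT, 1576 ± 286 in SNAI1_1 and 1387 ± 579.7 in SNAI1_2.

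FST (follistatin), which binds activins such as the activin A in the medium, was also lower. FST was measured at 70.9 FPKM in WT, 37.5 in SNAI1_1 and 37.8 in SNAI1_2 for the first table, against 66.1, 25.6 and 26.5 for the second. The knockout libraries held 38.8% to 53.4% of WT, without overlap, for a difference of -1.10 ± 0.10 (SE). INHBA, which encodes the activin A subunit, stayed under 1 FPKM in every library, with a highest value of 0.921, and was not tested.

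Counted together, 7 of the 9 genes were lower than WT in all 4 within-table differences and 2 (NODAL and FOXH1) were higher in all 4. Over all 13909 genes these shares were 35.1% lower and 26.2% higher. All 4 knockout libraries lay below both WT libraries for 6 genes (17.1% of all genes) and above both for 1 gene, NODAL (16.9% of all genes). LEFTY1, LEFTY2, GDF3 and CFC1 were under 50% of WT in all 4 ratios. The median log2 difference was -1.10 over the 9 genes and -0.05 over all genes tested. Because the genes were chosen with these differences known, nothing is read from the counts. In bulk RNA, fewer cells that express a gene and less RNA per cell cannot be told apart.

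**Figure D2:**
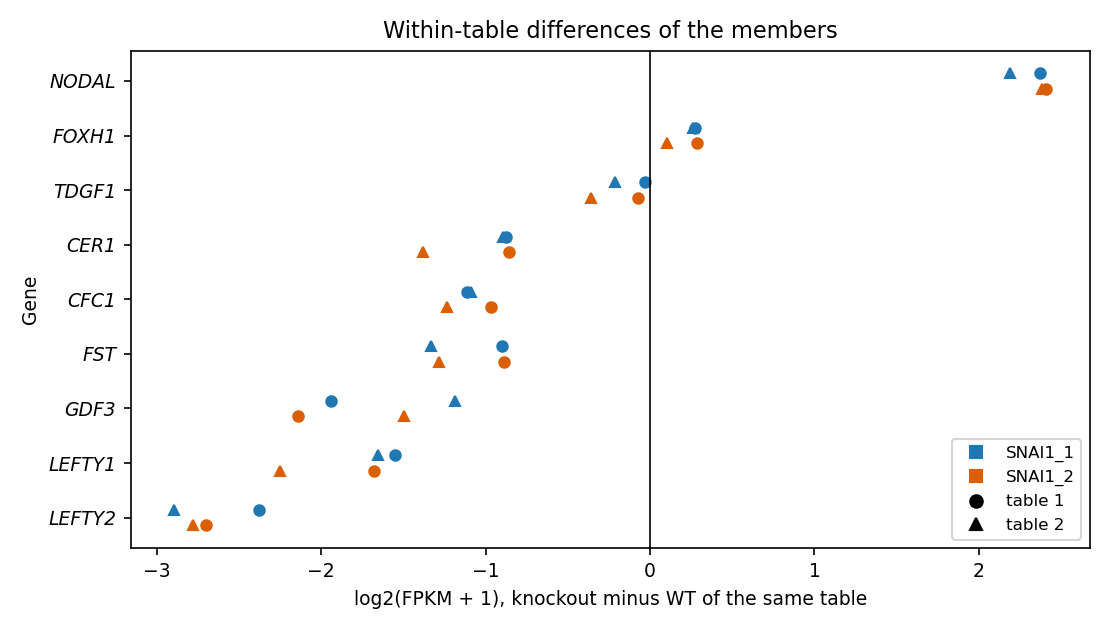
Difference of each knockout library from the WT library of the same table for the 9 genes, on the log2(FPKM + 1) scale, with SNAI1_1 in blue, SNAI1_2 in orange, circles for the first table and triangles for the second. The 4 points of a gene lay on 1 side of 0 for all 9 genes, above it for NODAL and FOXH1 and below it for the other 7.

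The order of the levels shifted with NODAL. In WT the order by mean FPKM was CER1, TDGF1, LEFTY1, FST, FOXH1, LEFTY2, NODAL, GDF3 and CFC1. LEFTY1 and FST overlapped there, and the other neighbours in that order did not. In both knockout groups NODAL ranked 3 instead of 7, directly under TDGF1, and LEFTY1 ranked 6 instead of 3. In SNAI1_1, FST and LEFTY1 overlapped, as did GDF3 and CFC1. In SNAI1_2 no neighbours overlapped.

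The balance between inhibitor and ligand transcripts was set out within each library. The sum of LEFTY1 and LEFTY2 was 7.997 times the NODAL level in WT, 0.412 times in SNAI1_1 and 0.356 times in SNAI1_2 in the first table. In the second table it was 8.92, 0.467 and 0.287 times. Both WT libraries thus held more LEFTY than NODAL mRNA per length, and all 4 knockout libraries held less. CER1 exceeded NODAL in every library, by 270.1, 26.7 and 26.3 times in the first table and by 191.6, 21.4 and 13.3 times in the second. These ratios compare mRNA levels and not protein.

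**Figure D3:**
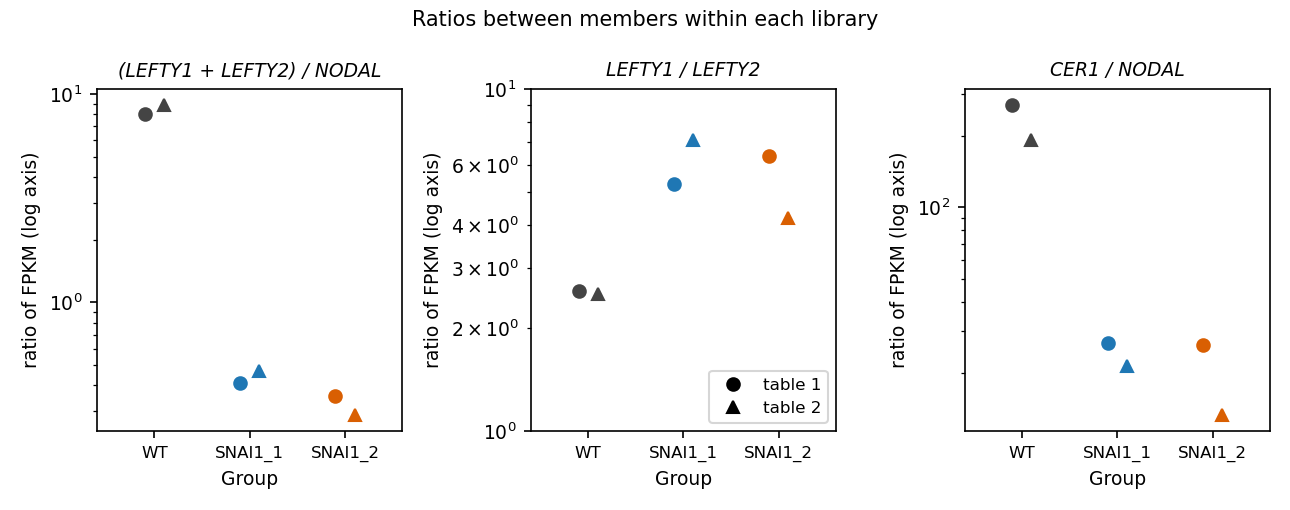
Ratios of FPKM between genes within each of the 6 libraries on log axes, with WT in grey, SNAI1_1 in blue and SNAI1_2 in orange, circles for the first table and triangles for the second. The ratio of LEFTY1 plus LEFTY2 to NODAL was 7.997 and 8.92 in WT and 0.287 to 0.467 in the knockout libraries.

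Whether the knockout groups differed from each other was a comparison that had not been used to choose the genes, and it was tested. None of the 9 genes passed limma's moderated test between SNAI1_2 and SNAI1_1 (0 of 9 at an adjusted p under 0.05 and 0 of 9 at an unadjusted p under 0.05). Over all 13909 genes, 0% were called (0 genes), and 521 had an unadjusted p under 0.05. LEFTY1 came closest, lower in SNAI1_2 by a log2 difference of -0.36 with a 95% interval from -0.73 to 0.012 and an unadjusted limma p of 0.0553. Its level was lower in SNAI1_2 than in SNAI1_1 in both tables. LEFTY1 passed an unadjusted p of 0.05 with a minimum of 5 FPKM, under quantile normalization and without SNAI1_2 of the first table (difference -0.62), and CER1 did so in the last case (-0.50), but neither passed after adjustment.

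The intervals show what differences between the knockout groups these 4 libraries leave possible. The difference was 0.12 (95% interval -0.07 to 0.31) for NODAL, -0.10 (-0.49 to 0.28) for LEFTY2 and -0.24 (-0.57 to 0.097) for CER1. For FST it was 0.03 (-0.27 to 0.33), for TDGF1 -0.09 (-0.29 to 0.10) and for FOXH1 -0.07 (-0.26 to 0.11). The low-level genes had the widest intervals, -0.82 to 0.31 for GDF3 and -0.40 to 0.40 for CFC1. On the log2(FPKM + 1) scale a difference beyond -0.82 or 0.40 lay outside the interval of every one of the 9 genes. Smaller ones could not be detected for all of them. This scale understates changes of low genes, and with 0.1 added in place of 1 the GDF3 difference was -0.45 instead of -0.25. The sign was negative for 7 of the 9 genes, but in the first table alone only 4 of 9 were lower in SNAI1_2, against 6 of 9 in the second.

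The other genes of the pathway, listed by role, were compared with WT to set the 9 genes in their context. Of 50 such genes 39 were tested, and 22 (56.4%) differed from WT, 7 higher and 15 lower, at an adjusted p under 0.05 (limma, over all 13909 genes). The share over all genes was 31.3%, with 15.8% higher and 15.4% lower, and the pathway list was written with earlier results of these data known. Taken singly against WT, 15 were called in SNAI1_1 (23.9% of all genes were) and 19 in SNAI1_2 (25.5% of all genes). The knockout groups differed from each other in 0 of the 39 by the same limma test. With either WT library left out, 10 of the 39 were called, and 7 were called without the table term.

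Among 8 activin-type ligands only 2 were tested, and they moved in opposite directions. INHBE, the inhibin beta E subunit, rose from low levels. It stood at 0.895 FPKM in WT, 11.7 in SNAI1_1 and 10.9 in SNAI1_2 for the first table, against 1.24, 13.1 and 18.9 for the second, a log2 difference of 2.80 ± 0.15 (SE, limma adjusted p = 0.000345) with no overlap between knockout and WT libraries. GDF11, an activin-like ligand, fell by 0.50 on that scale (limma adjusted p = 0.0243), a call that was lost without either WT library (0.137 and 0.154), without SNAI1_2 of the first table (0.0720) or without SNAI1_1 of the second (0.0746).

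Receptor transcripts were lower where they changed. Of 9 receptors and proteases 5 were tested, and 3 receptors fell. The type II receptors ACVR2B and ACVR2A had log2 differences of -0.51 and -0.53 (limma adjusted p = 0.00952 and 0.0195), and the type I receptor ACVR1B, known as ALK4, had -0.31 (0.0352). FURIN, a convertase that can process the NODAL precursor, rose by 0.30 (limma adjusted p = 0.0473), and its relative PCSK6 had a difference of 0.34 that did not pass (0.0698). These calls were not firm. ACVR2B lost its call without either WT library (adjusted p = 0.0694 and 0.0911), and ACVR1B lost it without any 1 of the 6 libraries (0.0817 to 0.207). ACVR2A lost it without either WT library (0.151 and 0.0870), SNAI1_1 of the first table (0.0656), or SNAI1_2 of either table (0.0601 and 0.0759). FURIN lost it without either WT library (0.127 and 0.278), SNAI1_1 of either table (0.139 and 0.0829) or SNAI1_2 of the second (0.0915).

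All 9 SMADs and nuclear partners were tested, and 3 passed. SMAD2, one of the pair of SMADs that NODAL and activin activate, fell by 0.66 ± 0.10 (SE, limma adjusted p = 0.00721), from 54.7 ± 4.10 FPKM (SD, n = 2) in WT to 35.5 ± 3.78 in SNAI1_1 and 33.1 ± 4.25 in SNAI1_2. SMAD3, the other of that pair, had a difference of 0.08 (adjusted p = 0.519). SMAD4, the common partner, fell by 0.39 (limma adjusted p = 0.00610), and SKIL, a SMAD corepressor that is itself a target, rose by 0.47 (0.00496). Without the WT library of the second table, SMAD4 (0.0618) and SKIL (0.0558) were no longer called.

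Of 13 further inhibitors 12 were tested, and 5 passed, 1 higher and 4 lower. LDLRAD4, a membrane protein that restrains SMAD2 and SMAD3 activation, fell most. It stood at 7.47 FPKM in WT, 1.76 in SNAI1_1 and 1.51 in SNAI1_2 for the first table, against 6.74, 2.27 and 1.58 for the second, a log2 difference of -1.55 ± 0.13 (SE, limma adjusted p = 0.00120), with all knockout libraries below both WT libraries. FSTL3, a follistatin relative that binds activin, fell by 0.76 (limma adjusted p = 0.0147), and TMEFF1, which binds Cripto, fell by 0.40 (0.0392). NCLN (nicalin), an endoplasmic reticulum antagonist of NODAL signaling, fell by 0.24 (0.0244). The inhibitory SMAD7 had a difference of -0.14 that did not pass (adjusted p = 0.303), and BAMBI, a decoy receptor, one of -0.22 (0.0638).

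NEDD4L, a ubiquitin ligase that acts on SMAD2 and SMAD3, was the inhibitor called higher, and it rested on uneven libraries. It stood at 16.1 FPKM in WT, 23.6 in SNAI1_1 and 127 in SNAI1_2 for the first table, against 11.1, 31.4 and 34.5 for the second, so that SNAI1_2 of the first table lay far above the other 5 libraries. The difference was 1.60 ± 0.43 (SE, limma adjusted p = 0.0415). Without SNAI1_2 of the first table the difference was 1.15 (0.0411). With the WT library left out the adjusted p was 0.233 for the first table and 0.189 for the second, and without SNAI1_1 of the second it was 0.0759. FSTL3 lost its call without either WT library (0.126 and 0.09996). TMEFF1 lost it without WT of the first table (log2 difference -0.22, adjusted p = 0.239), SNAI1_1 of either table (0.117 and 0.108) or SNAI1_2 of the first (0.0860), and NCLN without any 1 of the 6 libraries (0.0622 to 0.154).

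All 11 listed mesendoderm genes that are known to answer NODAL and activin were tested, and 8 passed, 3 higher and 5 lower. T (brachyury), a mesoderm regulator, rose most. T was measured at 17.8 FPKM in WT, 129.6 in SNAI1_1 and 143 in SNAI1_2 for the first table, against 38.7, 218 and 251 for the second, a log2 difference of 2.72 ± 0.080 (SE, limma adjusted p = 0.000142) without overlap. NANOG, a pluripotency factor, rose by 1.14 (limma adjusted p = 0.00634), a call lost without WT of the first table (0.0777). SOX17, an endoderm factor, rose by 0.63 (limma adjusted p = 0.0319).

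The 5 genes that fell were 4 transcription factors of mesoderm and endoderm and 1 receptor. LHX1 fell by 1.55 ± 0.11 (SE, limma adjusted p = 0.000815), from 53.9 ± 18.1 FPKM (SD, n = 2) in WT to 18.0 ± 2.87 in SNAI1_1 and 16.7 ± 1.68 in SNAI1_2. GATA6 and EOMES were lower, with log2 differences of -0.71 and -0.70 (limma adjusted p = 0.00212 and 0.00410). The chemokine receptor CXCR4 fell by 1.37 (0.00840) and the endoderm factor FOXA2 fell by 0.54 (0.0114).

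Goosecoid (GSC), MIXL1 and HHEX did not pass, with log2 differences of -0.29, -0.11 and 0.63 (limma adjusted p = 0.0839, 0.205 and 0.0528). CXCR4 lost its call without the WT library of the second table (0.0850). SOX17 lost it without WT of the first table (log2 difference 0.29, adjusted p = 0.0704), SNAI1_1 of either table (0.108 and 0.0703) or SNAI1_2 of the first (0.0919), and FOXA2 without either WT library (0.0602 and 0.111) or SNAI1_1 of either table (0.0524 and 0.0507). INHBE, LDLRAD4, T, LHX1, SMAD2, GATA6 and EOMES kept their calls whichever library was left out. The GATA6 groups overlapped across tables, with WT of the first at 171 FPKM and SNAI1_1 of the second at 184. SMAD2, GATA6 and EOMES each lost their call in another setting, as given below.

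**Figure D4:**
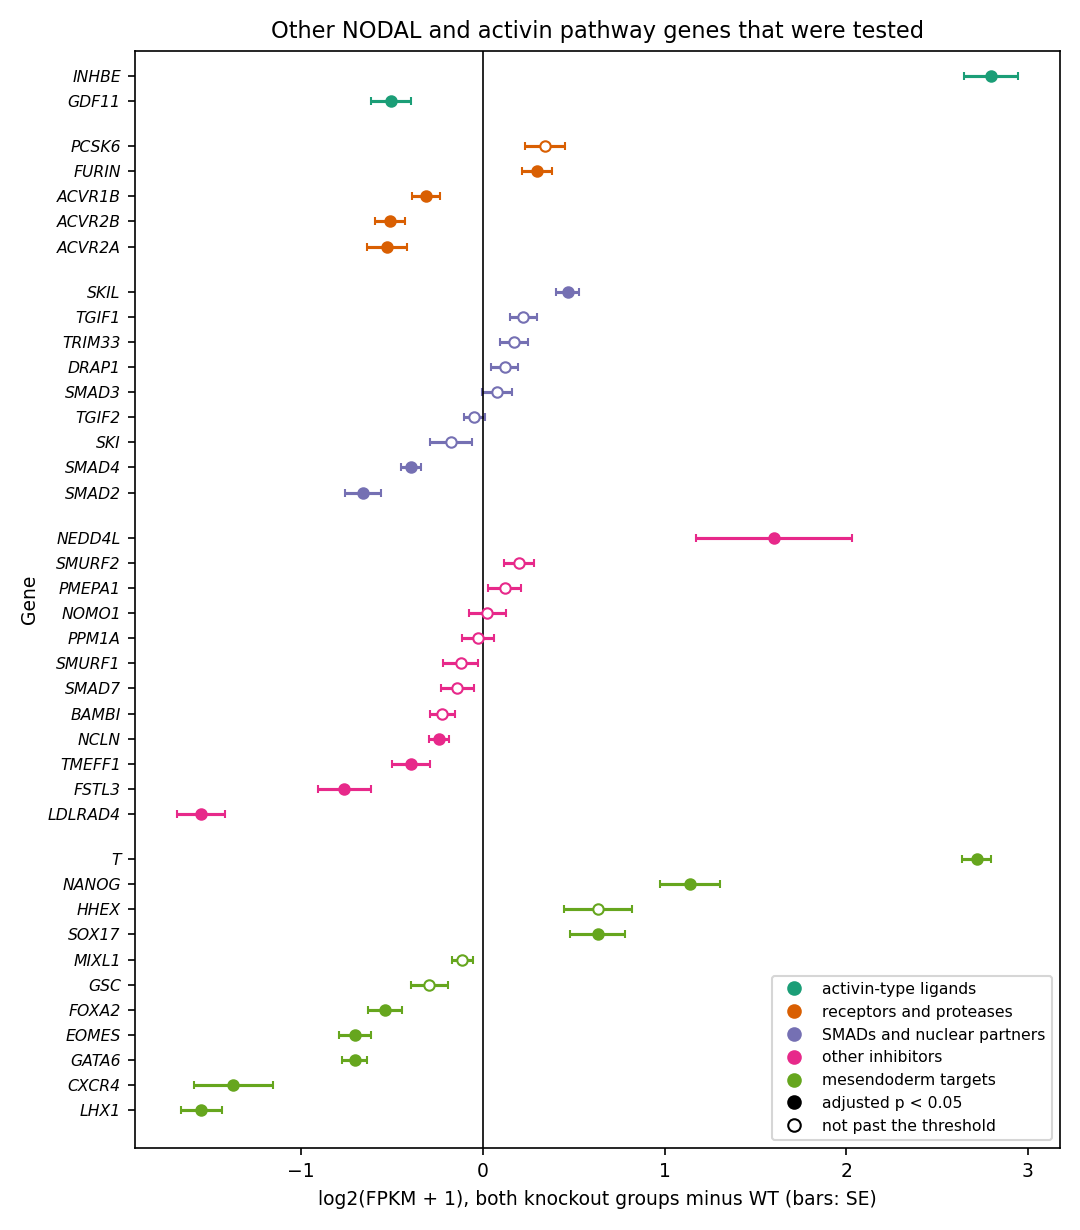
Difference of both knockout groups from WT on the log2(FPKM + 1) scale for the tested pathway genes outside the 9, grouped by role, with bars of 1 standard error and filled points at a limma adjusted p under 0.05. INHBE (2.80) and T (2.72) stood highest and LHX1 and LDLRAD4 (both -1.55) lowest.

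Markers of other cell states differed between the same libraries, and their part in the results above was not tested. All 6 epithelial markers were higher in the knockout libraries, and their summed level was 603.1 to 685.5 FPKM in WT, 1862 to 1948 in SNAI1_1 and 1879 to 2062 in SNAI1_2. Of 6 pluripotency markers 3 (POU5F1, NANOG and DPPA4) were higher and 0 lower by limma, with sums of 630.6 to 740.1, 857.8 to 1078 and 891.5 to 1167 FPKM. Most of the epithelial sum was KRT8, and most of the pluripotency sum was POU5F1. Of 8 mesoderm markers 2 (T and MSGN1) were higher and 4 (EOMES, MESP1, APLNR and KDR) lower. Their sums were 1399 to 1428 FPKM in WT, 1029.96 to 1132 in SNAI1_1 and 1060.5 to 1099.7 in SNAI1_2. The fall in that sum came mostly from APLNR, at 621 and 573 FPKM in WT and 217 to 280 in the knockout libraries. MSGN1, at 0 and 1.07 FPKM in WT, passed the filter through the knockout libraries (2.41 to 4.31). NANOG, T, MIXL1 and EOMES also stand in the mesendoderm list above.

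Endoderm is the lineage in which CER1 is best known. The sum of its markers was 75.6 FPKM in WT, 144.6 in SNAI1_1 and 129.6 in SNAI1_2 for the first table. For the second it was 272.9, 355.1 and 293.3. Most of each sum was SOX17. Of the 6 endoderm markers 5 were tested, 2 (SOX17 and FOXA1) were higher and 1 (FOXA2) lower, and TTR was listed at 0 in all 6 libraries. FOXA1, at 0.146 and 1.18 FPKM in WT, passed the filter through the knockout libraries (0.832 to 2.04). Of 7 amnion and trophoblast markers 4 were tested, with 2 (TFAP2A and GABRP) higher and 1 (GATA3) lower. Their sums were 36.1 to 56.8 FPKM in WT, 37.7 to 47.5 in SNAI1_1 and 37.7 to 64.5 in SNAI1_2. GABRP, with WT levels of 0.0415 and 0.149 FPKM, reached the filter through its knockout levels (1.03 to 2.34). The filter left out ISL1, lower in the knockout libraries (0.187 to 0.597 FPKM, WT 1.82 and 1.04). It also left out KRT7, higher there (0.832 to 1.18 FPKM, both WT libraries 0.334). These counts of higher and lower markers therefore depend partly on the filter. Of 6 neuroectoderm markers 2 were tested, of which limma called 0. The sums of the 6, nearly all from OTX2 and ZIC2, were 142.7, 150.4 and 154.4 FPKM in the first table. In the second they were 198.0, 186.6 and 159.3 FPKM. PAX6, too low on average to be tested, stood at 1.29 and 2.38 FPKM in WT and at 0.0242 to 0.184 in the knockout libraries. The other 3 untested markers of this list stayed under 1 FPKM in every library.

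Across the 6 libraries, FPKM sums ran from 603399 to 633851 and symbols at 1 FPKM or more from 13553 to 14063. Mitochondrial transcripts took 8.77% to 9.46% of the sum in the first table and 5.20% to 5.52% in the second, and within a table the groups were close. Total depth is unknown for FPKM values, but the spacing of values under 0.3 FPKM put the knockout libraries at 0.965 and 0.876 times the depth of WT in the first table and at 1.09 and 1.11 times in the second.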

How the data were processed

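The authors deposited FPKM values per gene symbol in 2 tables of 38100 and 58324 gene rows, with 1 library per group in each. The second table names the unit, and the first was read as FPKM from its values. The submitters' processing notes name RSEM, Bowtie, BWA and hg19, with no version, role or order. The annotation and strand setting were not given in the sources used here. Per the labels, 2 ug of total RNA went into a library.

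Symbols found once in both tables (37803) with a mean of at least 1 FPKM (13909) were analysed as log2(FPKM + 1), a scale that understates changes of low genes. limma (3.58.1, R 4.3.3) fitted a mean per group and a term for the table, with a mean-variance trend (residual degrees of freedom 2, prior 3.34). Two-sided p-values were adjusted over the 13909 genes by Benjamini-Hochberg and called under 0.05. The steps were tested on simulated data. Count tests were not used, since FPKM values are not counts.

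The table served as replicate block because libraries sharing a table deviated together (r = 0.616, 0.666 and 0.676, taken across genes, and genes are no independent replicates).

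The 9 genes, the pathway and marker lists and the tests were chosen with earlier results of these data known. Text names were SNAI1, the 9 genes, the 4 smallest adjusted p-values of each pathway list, the tested ones of ACVR1B, ACVR2A, ACVR2B, SMAD2, SMAD3, SMAD4, INHBA, SMAD7 and NANOG, and the 5 genes most like NODAL and LEFTY1. NEDD4L, SOX17, FOXA2, CXCR4, PCSK6, BAMBI, GSC, MIXL1, HHEX, PAX6, ISL1, KRT7 and the neighbouring genes were named after their values were seen. A gene of the mesendoderm list was left out of all list counts, and it and some others are not reported here. Promoter windows came from RefSeq on GRCh38.p14, another build than the authors' hg19, and no coordinate was carried between them. Alternatives were another pseudocount (0.1 or 10), no filter or a filter of 5 FPKM, quantile or median-ratio scaling, no replicate block, and leaving out each library.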

Additional observations from a re-analysis of the deposited data

How the results depend on the processing

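No difference of the 9 genes from WT changed sign under any alternative. The calls depended on the model. Without the replicate block the calls against WT fell from 3327 to 576 (SNAI1_1), from 3549 to 698 (SNAI1_2) and from 4348 to 1065 (both), and pathway calls from 22 to 7. Without a filter on low values they were 1008, 1216, 2139 and 8. Leaving out 1 library gave 962 to 2379, 1135 to 2693, 1728 to 2840 and 10 to 20, with 1 residual degree of freedom and the lone library of a group assumed to vary like the others. Scaling by median ratios moved the calls of both groups from 2201 higher and 2147 lower (50.6% higher) to 2469 and 1602 (60.6%), and TGIF1 then passed (adjusted p = 0.0429). ACVR1B (0.0637), NCLN (0.0553) and TMEFF1 (0.0633) did not. Without the block SNAI1 lost its call (0.0761), and so did FURIN (0.811), SOX17 (0.728), NCLN (0.687), FOXA2 (0.658), GDF11 (0.498), GATA6 (0.301), ACVR1B (0.285), TMEFF1 (0.199), ACVR2A (0.153), NEDD4L (0.150), SMAD4 (0.143), FSTL3 (0.136), ACVR2B (0.115), SKIL (0.115) and SMAD2 (0.0569). Without the filter the calls lost were those of NEDD4L (0.197), SOX17 (0.164), FURIN (0.157), TMEFF1 (0.157), GDF11 (0.1001), FSTL3 (0.0904), ACVR2A (0.0823), ACVR1B (0.0760), CXCR4 (0.0760), NANOG (0.0650), NCLN (0.0641), SMAD2 (0.0638), EOMES (0.0526) and FOXA2 (0.0523). A pseudocount of 10 ended those of NEDD4L (0.0653) and FURIN (0.0524). At a minimum of 5 FPKM GDF3, CFC1 and LDLRAD4 were not fitted. Between the knockout groups 0 genes were called by limma under every alternative, with 81 to 1313 at an unadjusted p under 0.05. The near-zero difference of CFC1 there turned to 0.000795 (pseudocount 0.1), 0.0153 (quantile) and 1.5e-05 (median ratio). Leaving out 1 library moved the differences between knockout groups over -0.14 to 0.14 (CFC1), -0.34 to 0.13 (LEFTY2), -0.086 to 0.15 (FST), -0.19 to 0.0053 (TDGF1), -0.16 to 0.013 (FOXH1) and -0.50 to 0.019 (CER1), and the SMAD3 difference from WT over -0.031 to 0.19. The precision of these values is limited by 2 libraries a group, and their depth is unknown.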

Other observations

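The genes next to the 9 on the chromosome were taken from the RefSeq order of protein-coding genes. Of 16 neighbours 11 were tested, and 5 passed by limma, 3 higher and 2 lower, where 31.3% of all genes tested passed, 15.8% higher and 15.4% lower. Beside LEFTY1 and LEFTY2, TMEM63A and SDE2 had log2 differences from WT of -0.02 and -0.05 (adjusted p = 0.915 and 0.626). Beside NODAL, EIF4EBP2 had 0.01 (adjusted p = 0.932) and PALD1 rose by 0.41 (0.0143). Beside CER1, FREM1, an extracellular matrix gene, fell by 0.97 (adjusted p = 0.00728) and ZDHHC21 rose by 0.63 (0.00897). LRRC2 beside TDGF1 fell by 0.52 (0.0300), and PPP1R16A beside FOXH1 rose by 0.48 (0.00295). DPPA3, a germ cell and pluripotency gene beside GDF3, stood at 1.08 and 0.959 FPKM in WT and at 0.0414 to 0.107 FPKM in the knockout libraries, too low on average to be tested.

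The genes whose log2 levels ran closest to NODAL over the 6 libraries, after each table was centred, were BCL2L1, MTCL1, TPD52, FABP3 and SYNGR2, with r from 0.99976 to 0.99999. BCL2L1, an anti-apoptotic gene, stood at 24.5 FPKM in WT, 66.6 in SNAI1_1 and 68.0 in SNAI1_2 for the first table, against 31.2, 79.2 and 85.8 for the second. Among the 5 closest to LEFTY1 were TMSB10, CDC42EP4, STC1 and EFEMP2. STC1, which encodes the hormone stanniocalcin, stood at 32.3 FPKM in WT, 9.49 in SNAI1_1 and 7.78 in SNAI1_2 for the first table, against 30.2, 8.07 and 4.75 for the second. In total 611 genes passed r = 0.99 with NODAL and 182 with LEFTY1, and these names describe the libraries only. Of the other 8 genes, CER1 ran closest to LEFTY1 (r = 0.994). The correlation with NODAL was smallest in absolute size for TDGF1 (r = -0.756). It was positive for FOXH1 (0.889) and more negative than that of TDGF1 for the rest.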
